A study of Homo sapiens with 4 samples.

Results

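The transcripts of the enzymes that shorten, decap and digest mRNA were followed through a pull-down of the m6A demethylase ALKBH5. The genes were taken from a list of 10 symbols, CNOT1, CNOT2, CNOT3, CNOT6, CNOT7, CNOT8, DCP2, EDC4, XRN1 and XRN2, and 9 of them have a row among the 26830 gene symbols of the expression table. CNOT3 was not analysed here. The RNA came from NOMO-1, an established human acute myeloid leukaemia line known as monocytic. All cells carried a lentivirus that overexpresses ALKBH5 with a 3xFlag tag, were sorted for GFP after puromycin and were crosslinked with UV light. Input RNA (labelled without antibody) was compared with RNA pulled down with an anti-Flag antibody, in 2 libraries of each kind, named input 1 and 3 and Flag-IP 1 and 3. The protein pulled down is therefore a tagged, overexpressed form. A pull-down from untagged cells is not part of the comparison, and what the antibody recovers without the tag was not measured. The labels do not state that the replicates were separate cultures; the p-values then reflect the spread of these libraries alone, which may be technical.

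Most mRNAs begin to decay by losing the poly(A) tail. The CCR4-NOT complex does most of this work: CNOT1 is the scaffold on which the other subunits assemble, CNOT2 and CNOT3 form the NOT module, and CNOT6, CNOT7 and CNOT8 are the nucleases that remove adenosines. The cap is then cut off by DCP2, helped by the scaffold EDC4, and the exposed body is digested from its 5′ end by XRN1 in the cytoplasm. XRN2 is the nuclear counterpart of XRN1 and also degrades the RNA left behind the polymerase after poly(A) site cleavage. The pathway meets m6A, the mark that ALKBH5 removes, because the m6A reader YTHDF2 brings CCR4-NOT to methylated mRNAs by binding CNOT1.

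m6A is laid down mostly within a short sequence context, of which GGACT, written here with T for U and searched on the transcript strand, is a frequent form. The RNA that these rows count is shown here at that motif, to let a reader see which stretches of the messages could carry the mark; the libraries hold no measurement of m6A, and a match is a description, not a modified site. Each line gives 29 bases, 5′ to 3′ on the transcript strand, around the copy nearest the stop codon that lies with its flanks inside a single coding exon. The motif is in capitals. Windows are shown for 6 of the 7 tested enzymes; CNOT6 and DCP2, which were too low to be tested, are left out, as is CNOT7.
CNOT1: gaatttggctgtGGACTtggacactgagg
CNOT2: tgaacaatcccaGGACTtctcaatacaca
CNOT8: gaatgaggatgtGGACTctgcccaggaga
EDC4: agagccccctgaGGACTggccagcactaa
XRN1: attctctgtgttGGACTgctttagacaaa
XRN2: tcgtacgttgaaGGACTttgctgggttct

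These windows come from GENCODE 29 on GRCh38. The CNOT1 window is chr16:58525179-58525207 (minus strand, exon 46 of 49) and the CNOT2 window chr12:70337414-70337442 (plus strand, exon 9 of 16). The CNOT8 window, chr5:154875370-154875398 (plus strand), lies in exon 8 of 8, and its motif ends 50 bases before the last coding base. The EDC4 window is chr16:67881673-67881701 (plus strand, exon 22 of 29). In XRN1 the only coding copy is at chr3:142418843-142418871 (minus strand, exon 11 of 42), 3918 bases before the end of the coding sequence. The XRN2 window is chr20:21346506-21346534 (plus strand, exon 17 of 30). The coding sequence of CNOT1 held 11 copies, or 1.54 per kb, and that of XRN1 held 1, or 0.195 per kb. The short coding sequences of CNOT7 and CNOT8 were the densest, with 2 copies each, or 2.34 and 2.28 per kb. Across 5954 tested protein-coding genes 76.3% held at least 1 coding copy, with a median of 0.954 per kb. Counted over the whole transcript, CNOT1 and XRN1 held 11 copies each, or 1.30 and 1.08 per kb. CNOT7 held 9, or 1.30 per kb, and XRN2 held 2, or 0.582 per kb. The median over whole transcripts of the 5954 genes was 0.961 per kb. Motif density over the whole transcript bore almost no relation to the difference between Flag-IP and input across these genes. Spearman's rho was 0.03 with the median-ratio difference described later, and genes are not independent replicates. Without a pull-down from untagged cells, that difference is not a measure of ALKBH5 binding alone.

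Levels were read in TPM, relative abundances that are already divided by transcript length and can be compared between genes. The sequencing depth is unknown, so counting errors are not given. CNOT1 was the most abundant of the 9 transcripts and stood at 4.23 TPM in input 1, 4.49 in input 3, 18.31 in Flag-IP 1 and 13.89 in Flag-IP 3. Both pull-downs lay far above both inputs. XRN2, the nuclear exonuclease, was the second in both groups, at 2.82, 2.95, 7.68 and 6.15 TPM in the same order of libraries. EDC4 followed at 1.77, 1.69, 6.25 and 5.78 TPM. In input the first 4 places, CNOT1, XRN2, EDC4 and CNOT7, were separated by ranges that did not overlap. In Flag-IP CNOT1 again stood clear at the top, but the range of EDC4 overlapped that of XRN2.

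The deadenylases were rarer. CNOT7 stood at 1.56 and 1.35 TPM in input and 3.69 and 2.11 in Flag-IP, and its paralog CNOT8 at 0.72 and 0.76 in input and 3.30 and 1.61 in Flag-IP. Both were higher in each pull-down than in either input, with a wide gap between the 2 pull-downs. CNOT6, a nuclease of a different fold that works beside them in the complex, had the lowest mean in both groups, at 0.48, 0.68, 1.28 and 1.01 TPM. The NOT-module subunit CNOT2 was at 0.65, 1.09, 2.66 and 2.12 TPM. XRN1, the cytoplasmic exonuclease, had 0.76, 0.82, 3.84 and 2.16 TPM, and the decapping enzyme DCP2 0.60, 0.60, 1.68 and 1.03 TPM. In input the ranges of CNOT2, XRN1 and CNOT8 ran into each other, as did those of DCP2 and CNOT6 in both groups, so the order among them is not resolved. In Flag-IP the ranges of XRN1, CNOT7, CNOT8 and CNOT2 overlapped from one to the next.

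**Figure D1:**
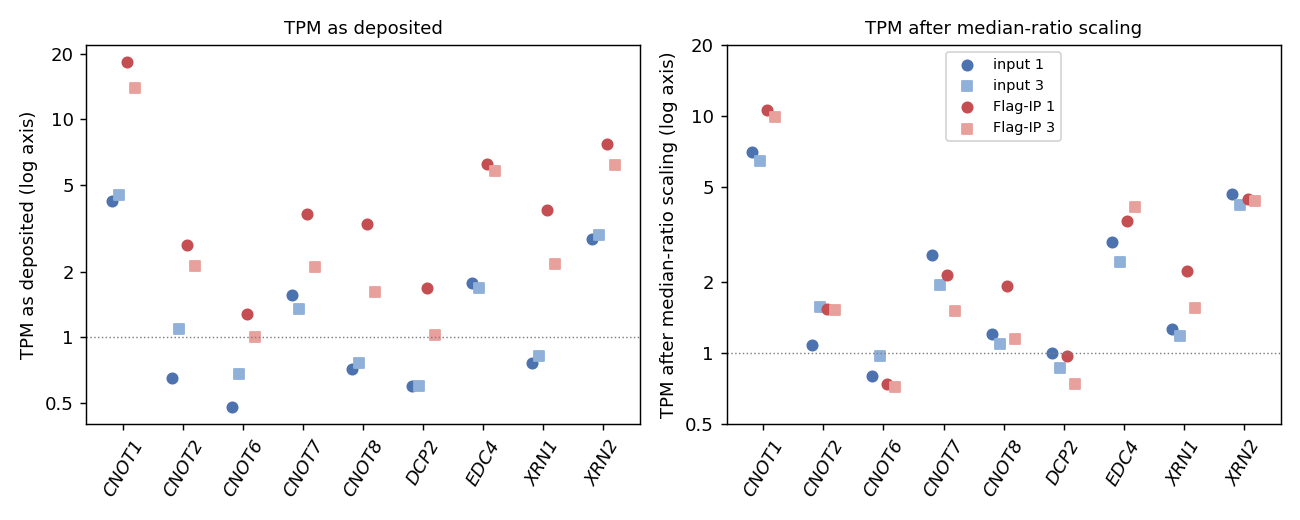
TPM of the 9 decay enzymes in each library on a log axis, as deposited (left) and after median-ratio scaling (right), with circles for replicate 1 and squares for replicate 3 and a dotted line at 1 TPM. As deposited each pull-down value lies above both input values for every enzyme; after scaling this holds for CNOT1, EDC4 and XRN1.

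For all 9 transcripts each pull-down lay above both inputs, and the same was true of most genes. A mean of 1 TPM over the 4 libraries was required for the test, and 93.1% of the 6487 genes that reached it had both pull-downs above both inputs. CNOT6 and DCP2 fell below that mean (0.863 and 0.978 TPM) and were not tested, which left 7 decay enzymes in the test. CNOT2, CNOT8 and XRN1 had input means under 1 TPM and reached the filter through their Flag-IP values, as did 34% of all tested genes, so counts and medians over the 7 describe the tested enzymes and support nothing. Ratios of mean TPM, Flag-IP to input, ran from 1.97 for CNOT6 and 1.99 for CNOT7 to 3.69 for CNOT1 and 3.80 for XRN1. EDC4 had 3.48, CNOT8 3.32, CNOT2 2.75, XRN2 2.40 and DCP2 2.26. The median over all tested genes was 2.38, and 20.1% of them had a larger ratio than XRN1, 21.2% a larger one than CNOT1 and 65.7% a larger one than CNOT7. XRN2 sat almost at the middle, with 49.4% of genes above it.

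On the deposited values limma (log2(TPM + 1), Benjamini-Hochberg over all tested genes) called all 7 tested enzymes higher at an adjusted p below 0.05, where 86.6% of all tested genes were called higher and 0.74% lower. With no filter 6 of the 9 were called, beside 49.1% of 15678 genes. The scaffold CNOT1 went from 4.36 ± 0.184 TPM (SD, n = 2 here and below) to 16.1 ± 3.13 TPM, a log2 difference of 1.66 ± 0.21 (SE; limma adjusted p = 1.21e-13). EDC4 went from 1.73 ± 0.0566 to 6.02 ± 0.332 TPM (1.36 ± 0.21, limma adjusted p = 8.45e-10), and XRN1 from 0.790 ± 0.0424 to 3.00 ± 1.19 TPM (1.13 ± 0.20, limma adjusted p = 7.63e-08). On this scale the genes showed no spread beyond what limma expects from their mean, so these p-values may be too small. With no filter the limma adjusted p was 0.00843 for CNOT1, 0.00824 for EDC4 and 0.0227 for XRN1. CNOT7 had the smallest difference, from 1.46 ± 0.148 to 2.90 ± 1.12 TPM (0.64 ± 0.21, limma adjusted p = 0.00288). Its call was lost without input 3 (adjusted p = 0.0859), without Flag-IP 1 (0.109) and with no filter on low values (0.0843). The median difference of the 7 was 1.02 beside 0.84 for all tested genes, and the share called, 7 of 7, is near that of the whole table.

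Structural RNAs, such as ribosomal RNA and 7SL, took 96.3% to 96.8% of TPM in input and 92.5% to 93.6% in Flag-IP, and since TPM sum to a fixed total the other genes share what is left; the part of these RNAs in the common shift was not tested. A second scale was therefore used, in which each library is divided by a median-ratio factor and a difference of 0 means that a gene has the ratio of the typical gene. The median of all tested genes was -0.01 on this median-ratio scale. Here limma called 2 of the 7 enzymes higher, CNOT1 and EDC4, and 0 lower (also 0 lower at an unadjusted p under 0.05), beside 22.3% of all tested genes higher and 18.6% lower. The share of 2 in 7 is close to that background. The median of the 7 was 0.22.

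CNOT1 stood at 7.04 and 6.44 scaled TPM in input and 10.6 and 9.93 in Flag-IP, a difference of 0.54 ± 0.11 (limma adjusted p = 0.0102). The groups did not overlap. The call was lost without input 3 (0.47, adjusted p = 0.0609) and when the trend of the difference with transcript length was removed (0.24, adjusted p = 0.138). EDC4 stood at 2.95 and 2.42 in input and 3.62 and 4.13 in Flag-IP, 0.41 ± 0.12 higher (limma adjusted p = 0.0416), again without overlap. Its call depended on each of 3 libraries: without input 3 the difference was 0.29 (adjusted p = 0.184), without Flag-IP 1 0.50 (0.0591) and without Flag-IP 3 0.34 (0.153). It was also lost with quantile scaling (adjusted p = 0.0531), no filter (0.118), the length trend removed (0.22, adjusted p = 0.21) and the replicate number as a block (0.0695). EDC4 also shares 16.2% of its annotated 50-base stretches with AC040162.3, a noncoding gene, so reads from those stretches cannot be assigned to EDC4 alone.

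XRN1 did not pass on the median-ratio scale. Its scaled TPM was 1.27 and 1.18 in input and 2.22 and 1.54 in Flag-IP, with no overlap between groups and a difference of 0.37 ± 0.14 (limma adjusted p = 0.0790). It passed without Flag-IP 3 (0.53, adjusted p = 0.0385) and when structural RNAs were dropped before rescaling (0.82, adjusted p = 0.0134), which put the median of all genes at 0.24. TPM values are larger after that rescaling, so the added 1 weighs less, and 0.82 is not on the same measure as 0.37. With the length trend removed XRN1 lay at -0.02 on the median-ratio scale. No overlap and higher was the pattern of 3 of the 7 tested enzymes on this scale (CNOT1, EDC4 and XRN1), against 37% of all tested genes.

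The other 4 tested enzymes did not pass on this scale. XRN2 was at 4.70 and 4.23 scaled TPM in input and 4.45 and 4.40 in Flag-IP, so that both pull-downs lay between the inputs. Its difference was -0.01 ± 0.10 (limma adjusted p = 0.950) and changed sign under 5 alternatives. With structural RNAs left out, 1 of these, XRN2 was at 0.23, where the median of all genes was 0.24. All other alternatives lay within -0.09 and 0.04. CNOT8 was at 0.22 ± 0.16 (limma adjusted p = 0.299), with 1.20 and 1.09 scaled TPM in input and 1.91 and 1.15 in Flag-IP. Its excess rested on Flag-IP 1, without which the difference was 0.03; it was 0.44 without Flag-IP 3. CNOT2 was at 0.13 ± 0.13 (limma adjusted p = 0.450; -0.03 without input 1, 0.28 without input 3 and -0.01 with the length trend removed). CNOT7 was at -0.21 ± 0.16 (limma adjusted p = 0.321), with 2.60 and 1.93 scaled TPM in input and 2.14 and 1.51 in Flag-IP. It was at -0.033 without Flag-IP 3, -0.082 without input 1, -0.321 without Flag-IP 1 and -0.388 without input 3. The untested CNOT6 was at 0.799 and 0.975 in input and 0.741 and 0.722 in Flag-IP, lower in both pull-downs, and DCP2 at 0.999 and 0.860 against 0.973 and 0.736, where the groups overlapped.

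**Figure D2:**
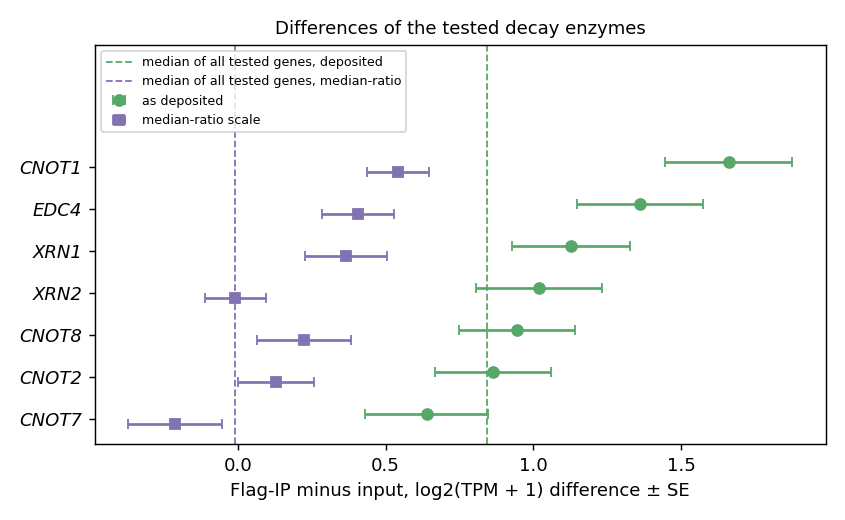
Log2 difference between Flag-IP and input, with its standard error, for the 7 tested decay enzymes on the deposited (circles) and the median-ratio scale (squares); dashed lines mark the median of all tested genes at 0.84 and -0.01. CNOT1 at 0.54 and EDC4 at 0.41 are the enzymes called on the median-ratio scale.

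Each of the 9 was higher in Flag-IP 1 than in Flag-IP 3, as were 84.4% of all tested genes. The ratio of Flag-IP 1 to Flag-IP 3 was 2.05 for CNOT8, 1.78 for XRN1, 1.75 for CNOT7 and 1.63 for DCP2, beside a median of 1.22 for all tested genes. It was 1.32 for CNOT1, 1.27 for CNOT6, 1.25 for CNOT2 and XRN2 and 1.08 for EDC4. After median-ratio scaling 6 of the 7 tested enzymes were still higher in Flag-IP 1, beside 46.3% of all tested genes, with 1.66 for CNOT8 and 1.44 for XRN1. EDC4 went the other way, at 0.876. These ratios of single libraries were not tested.

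Ratios of one enzyme to another inside a library do not depend on how the library was scaled. The ratio of CNOT8 to CNOT7, paralogs that take the same nuclease position in the complex by turns, was 0.462 in input 1 and 0.563 in input 3, and 0.894 in Flag-IP 1 and 0.763 in Flag-IP 3. The log2 ratio was 0.70 higher in Flag-IP, and the groups did not overlap. With 1 library left out it was between 0.55 and 0.84 higher, and with a pseudocount of 1 it was 0.306 higher. Of the annotated 50-base stretches of CNOT7, 1.57% also occur in other genes, mostly the pseudogene CNOT7P1, and CNOT8 shares none. The ratio of CNOT6 to CNOT7 was 0.308 and 0.504 in input and 0.347 and 0.479 in Flag-IP, where the groups overlapped.

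The ratio of XRN1 to its nuclear relative XRN2 was 0.270 and 0.278 in input and 0.500 and 0.351 in Flag-IP, a log2 difference of 0.61, with a larger spread in the pull-downs (SD 0.36) than in input (SD 0.03). It was 0.36 without Flag-IP 1, 0.87 without Flag-IP 3 and 0.108 with a pseudocount of 1. DCP2 to its cofactor EDC4 stood at 0.339 and 0.355 in input and 0.269 and 0.178 in Flag-IP, a log2 difference of -0.66 (-0.961 without Flag-IP 1 and -0.368 without Flag-IP 3). CNOT2 to its scaffold CNOT1 stood at 0.154 and 0.243 in input and 0.145 and 0.153 in Flag-IP (-0.38; -0.045 without input 3, -0.705 without input 1 and -0.798 with a pseudocount of 1). Of the 5 pairs that could be formed, 4 did not overlap between groups, and 73.7% of all pairs of tested genes above 0 in every library did not overlap either. An exact two-sided permutation test of 2 libraries against 2 cannot go below p = 0.333, which these 4 pairs reached (Benjamini-Hochberg adjusted 0.417), so none of the ratios can pass a threshold in this design. As a share of the summed TPM of the 9 enzymes, CNOT1 accounted for 31.1% ± 0.007 in the inputs and 38.2% ± 0.798 in the pull-downs. CNOT7 had 10.4% ± 1.50 and 6.73% ± 1.20, and XRN2 20.6% ± 0.217 and 16.5% ± 0.974. These shares were not tested.

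**Figure D3:**
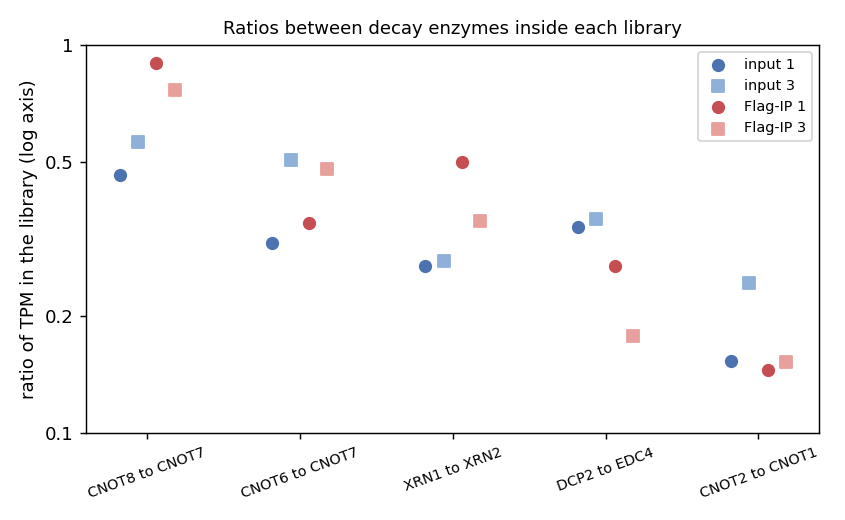
Ratio of the TPM of 2 decay enzymes inside each library, on a log axis, for 5 pairs in the 4 libraries. CNOT8 to CNOT7 and XRN1 to XRN2 are higher in both Flag-IP libraries, and CNOT6 to CNOT7 overlaps between the groups.

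The enzymes differ widely in the length of their messages, and length went with the difference over the whole table. Across the 5954 protein-coding genes Spearman's rho between the median-ratio difference and the coding length was 0.59, and 0.48 with transcript length; genes share their libraries and are not independent replicates. CNOT1 (chromosome 16, 58519951 to 58629886, minus strand, GRCh38) has 7128 coding bases in 49 exons. XRN1 (chromosome 3, 142306607 to 142448062, minus strand) has 5118 in 42 exons, and EDC4 (chromosome 16, 67873023 to 67884503, plus strand) has 4203 in 29. These 3 enzymes with the longest coding sequences had the 3 largest differences. XRN2 (chromosome 20, 21303304 to 21389827, plus strand) follows with 2850 coding bases and CNOT2 (chromosome 12, 70242994 to 70354993, plus strand) with 1620. CNOT8 (chromosome 5, 154857553 to 154876793, plus strand) and CNOT7 (chromosome 8, 17224964 to 17246878, minus strand) are short and nearly equal at 876 and 855 coding bases, yet CNOT8 lay above the typical gene and CNOT7 below it, neither of which passed the test. Their whole transcripts differ, 2708 bases for CNOT8 and 6913 for CNOT7. CNOT6 (chromosome 5, 180494412 to 180578405, plus strand) and DCP2 (chromosome 5, 112976702 to 113020970, plus strand) have 1671 and 1260 coding bases, in transcripts of 6303 and 8947 bases. With the trend of the difference on transcript length removed, 0 of the 7 tested enzymes passed in limma on the median-ratio scale. Of all genes 19.6% were then higher and 15.2% lower. Among the 7, 1, CNOT7 (-0.46, limma adjusted p = 0.0664), had an unadjusted p under 0.05.

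**Figure D4:**
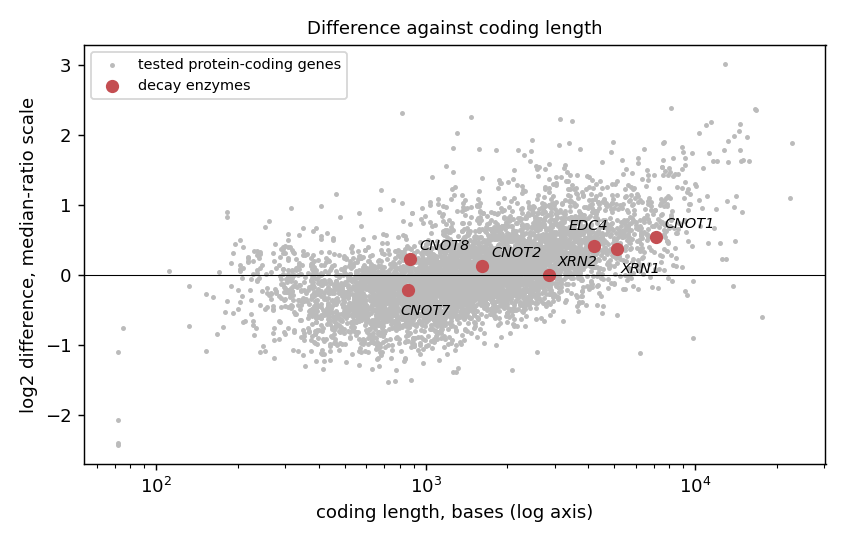
Median-ratio log2 difference against coding length (log axis) for the tested protein-coding genes (grey) and the 7 tested decay enzymes (red). CNOT1, XRN1 and EDC4, with 7128, 5118 and 4203 coding bases, lie at 0.54, 0.37 and 0.41, inside the cloud of other genes of similar length.

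The other proteins of deadenylation and decapping were taken from a list of 50 genes sorted by role, of which 48 had a row and 30 passed the filter of a mean of 1 TPM. On the deposited scale limma called 27 of the 30 higher and 0 lower (0 lower at an unadjusted p under 0.05 too), against 86.6% of all tested genes higher. On the median-ratio scale 11 were higher and 4 lower, beside 22.3% and 18.6% of all genes, with a median of 0.08. Without input 1 the counts were 7 higher and 4 lower of 32 tested (17.2% and 12.5% of all genes), and without Flag-IP 1 they were 7 and 1 of 26 (15.8% and 9.98%). Without Flag-IP 3 they were 7 and 2 of 29 (16.2% and 13.6%), and with the length trend removed 8 and 1 of 30 (19.6% and 15.2%). Of the 30, 15 had an input mean under 1 TPM and reached the filter through Flag-IP, as did 34% of all tested genes, so the counts of higher genes describe those that were tested and support nothing. In each role the 2 genes with the highest mean are named, and the differences and calls that follow are on the median-ratio scale unless the deposited scale is named.

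Of the subunits of CCR4-NOT other than the listed enzymes 3 were tested. As deposited, limma called all 3 higher, beside 86.6% of all tested genes. On the median-ratio scale it called 0 of them, with 0 at an unadjusted p under 0.05, beside 22.3% of all tested genes higher and 18.6% lower. CNOT10 and CNOT11, which form a module at the scaffold's end, were at 0.14 and 0.18 (limma adjusted p = 0.343 and 0.280). Of the 3 tested genes of other tail-shortening enzymes, 2 were higher: PAN2, the nuclease of the PAN2-PAN3 complex that starts on long tails, went from 0.345 ± 0.120 to 3.85 ± 0.495 TPM (1.18 ± 0.13 on the median-ratio scale, limma adjusted p = 0.00193), and its partner PAN3 from 0.625 ± 0.0212 to 2.62 ± 0.679 TPM (0.44 ± 0.11, adjusted p = 0.0210). All 3 tested genes of this role, PAN2, PAN3 and PARN, reached the filter through Flag-IP. The count of 2, beside 22.3% of all tested genes called higher, therefore supports nothing. Without a filter PAN2 was at 1.15 (limma adjusted p = 0.0184). PAN3 lost its call without input 3 (adjusted p = 0.0749), without Flag-IP 1 (0.0904), with the length trend removed (0.0755), with quantile scaling (0.0582) and without a filter (0.0681).

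Of 7 tested proteins that bring deadenylases to their targets, 6 were higher and 1 lower on the median-ratio scale, beside 22.3% and 18.6% of all tested genes. On the deposited scale 7 were higher, beside 86.6% of all tested genes. With the length trend removed 4 were higher and 1 lower, beside 19.6% and 15.2% of all genes. The median transcript length of the 7 was 6251 bases, beside 3454 for all tested genes. TNRC6A, RC3H1 and RC3H2, named after their values were seen, had input means of 0.500, 0.295 and 0.905 TPM and reached the filter through Flag-IP. The count of 6 therefore supports nothing. Without a filter, limma on the median-ratio scale called 6 of 17 higher and 2 lower, beside 8.86% and 5.45% of all genes. PUM2, a Pumilio protein that binds a short motif in mRNAs, went from 2.39 ± 0.304 to 8.18 ± 1.64 TPM (0.41 ± 0.10, limma adjusted p = 0.0218), and lost its call without input 1 (0.0961), input 3 (0.0741) or Flag-IP 1 (0.0737), with the length trend removed (0.18, adjusted p = 0.217) and without a filter (0.0531). ZFP36L2, a binder of AU-rich elements, was the one lower on the median-ratio scale (-0.47 ± 0.10, limma adjusted p = 0.0131), although its deposited level was higher in Flag-IP, 6.41 ± 1.16 TPM beside 3.95 ± 0.566 in input (0.58, limma adjusted p = 0.00881). Its median-ratio call was lost without input 3 (0.0524), Flag-IP 1 (0.0549) or Flag-IP 3 (0.0628), with structural RNAs dropped (-0.32, adjusted p = 0.0740) and under a filter at 5 TPM (-0.29, adjusted p = 0.0601).

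Of 13 tested decapping cofactors, 2 were higher, 3 lower and 8 did not pass on the median-ratio scale, with a median of -0.03. Among all tested genes 22.3% were higher and 18.6% lower. On the deposited scale 10 of the 13 were higher, beside 86.6% of all tested genes. Of the 13, 5 had an input mean under 1 TPM and reached the filter through Flag-IP. EIF4ENIF1, called higher and named after its values were seen, was among them. LSM7 belongs to the ring of small proteins that binds shortened tails and had the highest mean of the list, 9.82 ± 0.0636 TPM before and 13.4 ± 0.983 after the pull-down. It was lower relative to the typical gene (-0.75 ± 0.12, limma adjusted p = 0.00532), a call lost with the length trend removed (-0.33, adjusted p = 0.0762). LSM3, of the same ring, was at -0.24 and did not pass (adjusted p = 0.104). Of the enzymes that clear cap remnants or faulty caps 2 were tested. Both were called higher as deposited, beside 86.6% of all tested genes. On the median-ratio scale 0 passed in limma (0 at an unadjusted p under 0.05). DCPS was at -0.20 and DXO at 0.01 (limma adjusted p = 0.246 and 0.975). The 2 tested partners of XRN2 were both called higher as deposited, beside 86.6% of all tested genes. On the median-ratio scale 1 was higher and 0 lower, beside 22.3% and 18.6% of all tested genes. TTF2, a transcription termination factor, was the higher one, from 1.08 ± 0.0919 to 4.74 ± 0.389 TPM (0.60 ± 0.10, limma adjusted p = 0.00647), while NKRF was at -0.12 (adjusted p = 0.407). NKRF had an input mean of 0.825 TPM and reached the filter through Flag-IP. TTF2 lost its call with the length trend removed (0.25, adjusted p = 0.109).

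**Figure D5:**
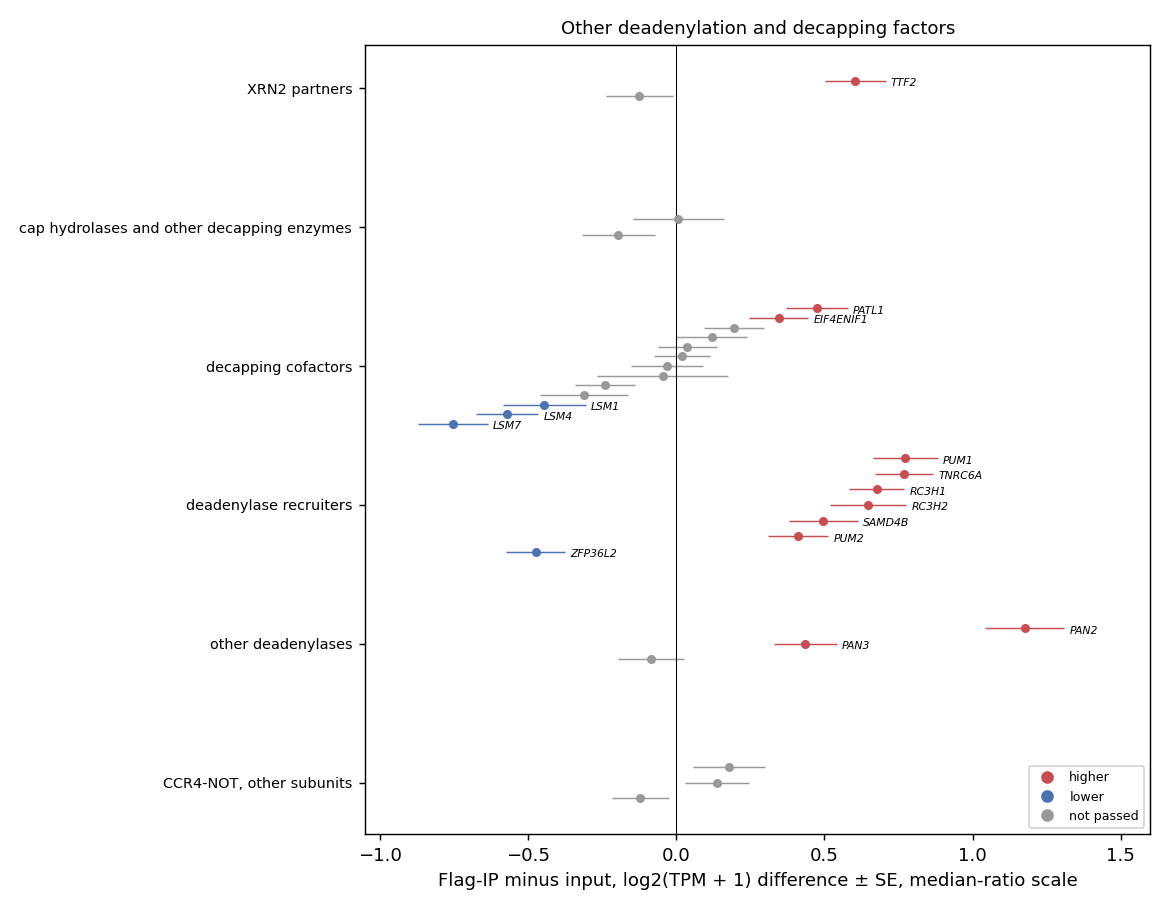
Median-ratio log2 difference with its standard error for the 30 tested deadenylation and decapping factors by role, red for higher, blue for lower and grey for not passed in limma. PAN2 lies farthest right at 1.18 and LSM7 farthest left at -0.75.

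Of 14 myeloid and monocytic markers 8 reached a mean of 1 TPM: PTPRC, CD33, SPI1, CEBPA, CD68 and the granule genes ELANE, AZU1 and CTSG. The 14 summed to 72.6 and 87.1 TPM in input and 138 and 127 in Flag-IP. The markers that define monocytes were mostly low: CD14 was listed at 0 in all 4 libraries, and CSF1R reached at most 0.03 TPM, FCGR1A 0.33 and ITGAM 0.56. LYZ stood at 0.40 and 0.80 TPM in input and 1.63 and 0.95 in Flag-IP, and MPO reached 0.13. The libraries thus carried myeloid markers, while most monocytic ones were near 0. No marker of T, B, erythroid, epithelial or fibroblast cells reached a mean of 1 TPM. The message of ALKBH5 itself averaged 4.77 ± 0.205 TPM in the inputs and 9.50 ± 0.834 in the pull-downs, a ratio of 1.99, and did not pass on the median-ratio scale (-0.24, limma adjusted p = 0.124).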

How the data were processed

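The submitters' processing notes name STAR, RSEM and the build GRCh38. Tool versions and the gene models were not given in the sources used here. Values were deposited by the authors as TPM per gene symbol in 4 libraries, each summing to 1000000 within rounding, so depth is not kept. The 10 members and all gene lists were chosen with earlier results of these data known.

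The 6487 genes whose mean reached 1 TPM were fitted on log2(TPM + 1) by limma 3.58.1 in R 4.3.3 (lmFit, eBayes with a mean-variance trend). Tests were two-sided at a Benjamini-Hochberg adjusted p of 0.05, on the deposited scale and after median-ratio scaling (factors 0.601 and 0.698 for the inputs and 1.73 and 1.40 for Flag-IP). A log2 difference understates the change of low genes because 1 is added. As deposited, the genes showed no spread beyond limma's trend, so those p-values may be too small. Ratios inside libraries used an exact permutation test; the pair of CNOT3 and CNOT1 was not formed. The fit was run on simulated data with independent noise of the same size for every gene. That run does not test the p-values of these libraries. Named were all members, ALKBH5 and, in each role, the 2 tested genes with the highest mean. GENCODE 29 gave coordinates and lengths (longest transcript for the trend, longest coding sequence elsewhere) for 23794 symbols. Alternatives were other filters, a pseudocount of 0.1, no variance trend, a replicate block, an adjusted p below 0.1, quantile scaling, structural RNAs left out, the length trend removed (loess) and each library left out.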

Additional observations from a re-analysis of the deposited data

How the results depend on the processing

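On the deposited scale 7 enzymes were called higher, beside 86.6% of all genes. With a filter at 5 TPM, which left 1 enzyme in the test, 1 was called, beside 82.7% of all genes. On the median-ratio scale the 2 calls (22.3% of all genes higher) became 1 with no filter (8.86%), 1 with a filter at 5 TPM (25.5%), 1 after quantile scaling (19.1%), 0 with the length trend removed (19.6%), 3 with structural RNAs left out (35.1%), 3 at an adjusted p below 0.1 (26.9%) and 0 to 2 with a library left out (15.8% to 17.7%). Of the other factors, the 27 deposited calls became 4 with a filter at 5 TPM (5 tested), beside 82.7% of all genes. The 11 higher and 4 lower median-ratio calls became 2 and 1 with that filter (25.5% and 23.1% of all genes). They became 8 and 1 with the length trend removed (19.6% and 15.2%), and 12 and 2 with structural RNAs left out (35.1% and 11.3%). No enzyme was called lower under any of these alternatives.

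On the median-ratio scale differences that turned sign were CNOT2 (-0.009 with the length trend removed, -0.032 to 0.281 with a library left out), XRN1 (-0.019 with the length trend removed), XRN2 (-0.091 to 0.039 with a library left out, 0.003 with quantile scaling, 0.230 with structural RNAs left out), DXO (-0.017 with no filter, -0.225 to 0.224 with a library left out, -0.109 with quantile scaling) and NKRF (0.015 with structural RNAs left out). None of these passed before or after. Values with structural RNAs left out are not on the median-ratio scale, and the median of all genes there was 0.236. XRN2 at 0.230 was near that median and NKRF at 0.015 below it. A sign in that setting therefore does not place a gene relative to the typical gene. The cause of the other turns was not tested. The CNOT6 to CNOT7 ratio (0.05) turned to -0.198 with a pseudocount of 1 and ranged from -0.306 to 0.405 with a library left out.

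The labels give the groups the replicate numbers 1 and 3 but do not say that a number pairs libraries; deviations of same-numbered libraries correlated at -0.168 (deposited) and -0.187 (median-ratio). With the replicate block the enzymes called higher were 7 (deposited) and 1 (median-ratio), and the other factors 25, and 10 higher with 4 lower. Of all tested genes 73.8% were then higher as deposited, and 19.8% higher and 16.3% lower on the median-ratio scale. A crossed block, added after seeing the data, gave 7 and 2 enzymes and 30, and 10 higher with 3 lower. Under it 91.1% of all tested genes were higher as deposited, and 21.7% higher and 19.7% lower on the median-ratio scale. With 1 library left in a group, its spread is assumed to be that of the other group. Depth is unknown, so no limit of detection can be set for these low TPM values.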
